A study of Homo sapiens with 12 samples.

Results

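UCI-1014 is a methoxy analog of UCI-1001, a pyrimidine trione that carries a nitro group at that place and was put forward as a corrector of mutant p53. The genes described here are those whose RNA was strongly lower in UCI-1014-treated cells. The genes were chosen by their levels in DMSO and UCI-1014 libraries: a gene was taken when its mean was at least 2 CPM (counts divided by the library total and scaled to 1000000) in the DMSO libraries and at most 0.6 times that mean in the UCI-1014 libraries. Counts were summed over identifiers that share a gene symbol, and symbols starting with ZNF, HIST, MT- or KLF were left out. The rule found 451 of 28439 symbols, or 451 of the 11894 symbols with at least 2 CPM in DMSO (3.79%), after 22 ZNF, 1 HIST and 5 MT- symbols had been set aside. Since those libraries chose the genes, their levels in these libraries are given as a description without a test.

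RNA-seq was done on 12 libraries. TOV-112D cells, an ovarian cancer line with endogenous p53-R175H, were treated for 3 h with DMSO, UCI-1001 or UCI-1014, with 2 libraries each. Saos-2 cells, an osteosarcoma line, were p53-null or carried a lentiviral, doxycycline-inducible p53-WT, with 3 libraries each, and both are labelled with 16 h of induction. For UCI-1014, no dose for the RNA-seq experiment was found in the sources used here, so the readouts of both compounds are set side by side at the same time and not at a known matched dose. The libraries are labelled as replicates, and nothing in the labels says that they came from separate cultures, so p-values measure the spread between these libraries, which may be technical.

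Library totals ran from 17762027 to 20717898 counts in TOV-112D and from 19593655 to 24629558 in Saos-2 cells. Of 8 ovarian epithelial markers, KRT18 was at 0 and KRT8, KRT19, KRT7, PAX8 and MUC16 at or below 0.485 CPM in all TOV-112D libraries, while EPCAM had 1.88 to 3.203 CPM and CDH1 0.776 to 1.70 CPM. Of 7 osteoblast markers in Saos-2, SP7 was at 0, IBSP, BGLAP, ALPL and SPARC stayed at or below 0.615 CPM, COL1A1 had 0.382 to 1.96 CPM and RUNX2 3.83 to 13.1 CPM, while the keratins KRT8 and KRT18 had 210.0 to 523 CPM and 391 to 595 CPM there. In TOV-112D, COL1A1 had 47.9 to 51.1 CPM, ALPL 1.63 to 2.38 CPM and SPARC 1.34 to 2.32 CPM, all above Saos-2. EPCAM and CDH1 were also higher in TOV-112D. Most of these markers thus did not follow the tissue named for each line. The TMM scale of the tests and the CPM scale of the rule differed: the UCI-1014 to DMSO ratio was shifted by -0.14 on the log2 scale in CPM, and a gene at 0.6 in CPM stood at 0.659 on the TMM scale. The p53-WT to p53-null ratio was shifted by -0.15 in the same way, and the fold changes below are on the TMM scale. With TMM-scaled libraries the same rule took 247 genes, and all 247 were among the 451.

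Hedgehog, Wnt, Notch and BMP signals shape tissues in the embryo, and many of their targets are feedback parts of the pathway itself. HOX, DLX, IRX and other homeobox factors give cells their position and lineage. The genes lowered by UCI-1014 held parts of these pathways, developmental transcription factors of some families, chromatin regulators, and genes of the mitochondria and of the RNA machinery. Of the 451 genes, 145 were placed in 12 such groups for ordering, after the members were known, and 306 were left without a group.

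The median ratio of UCI-1014 to DMSO was 0.538 over the 451 genes. Of these, 141 were at or below 0.5 and 35 at or below 0.4. Both UCI-1014 libraries lay below both DMSO libraries in 445 genes, as they did in 58.2% of all genes of at least 2 CPM, and the rule nearly fixes this count. Taking out each DMSO and UCI-1014 library in turn left 298 genes past the rule every time. The genes just inside the threshold were LRP5 at 0.5996, SSC5D at 0.5999 and LY6G5B at 0.59999, and those just outside were OGFR at 0.6001, SCNN1D at 0.6002 and SEC22B4P at 0.6005.

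Hedgehog signalling works through the receptor PTCH1, which holds the pathway off, through SUFU, which binds GLI proteins, and through the GLI factors themselves. PTCH1 (GRCh38 chr9:95442980-95517057) had 199 and 193 CPM in DMSO, 145 and 136 CPM with UCI-1001, and 87.6 and 77.0 CPM with UCI-1014. The 3 groups did not overlap, and the UCI-1014 mean was 0.420 times the DMSO mean. GLI1, a GLI factor that is also a standard readout of the pathway, had 71.2 and 68.6 CPM in DMSO, 55.4 and 56.0 CPM with UCI-1001, and 40.3 and 37.5 CPM with UCI-1014. SUFU had 32.8 and 33.3 CPM in DMSO and 15.3 and 15.4 CPM with UCI-1014, with 23.98 and 25.3 CPM under UCI-1001, and GLI2 had a UCI-1014 to DMSO ratio of 0.561. Against DMSO, all 4 were lower with UCI-1001 by edgeR's quasi-likelihood test, PTCH1 by -0.46 ± 0.05 (log2 fold change ± SE, adjusted p = 3.53e-05) and SUFU by -0.40 ± 0.07 (adjusted p = 0.00162). The DMSO libraries of this test also chose the genes. The UCI-1001 fold changes, p-values and counts of members, here and below, depend on that choice and are given as a description. In a list of 11 Hedgehog genes, 10 were tested in TOV-112D, of which 5 were lower and 0 higher with UCI-1001, and 6 were lower and 1 higher with UCI-1014. Over all 14174 genes tested, 6.36% were lower with UCI-1001 and 23.4% lower and 23.7% higher with UCI-1014. Members are counted in this list and the lists that follow, so nothing is read from their UCI-1014 counts. SMO, the transducer that PTCH1 holds off, had means of 109 CPM in DMSO and 91.7 CPM with UCI-1014 and was not in the set.

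The sequences before the start of 5 of these genes are shown because they stand for the main kinds of gene in the set: the pathway receptor PTCH1, the Notch ligand JAG2, the intronless transcription factors SOX12 and POU3F2, and the small RNA polymerase subunit POLR2L. They are from RefSeq (GRCh38.p14), 5′ to 3′ on the strand of the gene, end at the base before the gene start unless an exon in GENCODE covers it, and have a motif in capitals, searched on both strands. For PTCH1 it is GACCACCC, the core of the GLI site, for POU3F2 ATCAAAG, a TCF/LEF site, and for the others GGGCGG, the GC box. The motif was picked by hand for each gene and no other is marked. GGGCGG also lies unmarked in the sequences of PTCH1 and POU3F2. Whether any marked motif acts on its gene was not tested. These motifs were in 1.00%, 2.64% and 44.6% of 27305 promoter windows of 300 bases, and in 0.991%, 1.33% and 72.3% of the 9080 windows found for other genes of at least 2 CPM in DMSO.
PTCH1: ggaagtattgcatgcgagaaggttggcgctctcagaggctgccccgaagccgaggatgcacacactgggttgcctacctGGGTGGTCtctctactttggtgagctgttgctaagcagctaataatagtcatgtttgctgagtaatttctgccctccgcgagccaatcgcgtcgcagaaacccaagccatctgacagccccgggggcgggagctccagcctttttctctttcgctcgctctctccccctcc
JAG2: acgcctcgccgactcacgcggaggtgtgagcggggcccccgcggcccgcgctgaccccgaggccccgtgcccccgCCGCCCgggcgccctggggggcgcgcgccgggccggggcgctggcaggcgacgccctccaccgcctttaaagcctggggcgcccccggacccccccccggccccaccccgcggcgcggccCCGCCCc
SOX12: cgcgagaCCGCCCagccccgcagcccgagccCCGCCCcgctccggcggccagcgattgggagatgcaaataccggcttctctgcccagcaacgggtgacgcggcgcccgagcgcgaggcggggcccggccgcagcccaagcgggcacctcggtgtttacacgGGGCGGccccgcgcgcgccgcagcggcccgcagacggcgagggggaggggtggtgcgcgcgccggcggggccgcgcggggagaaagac
POU3F2: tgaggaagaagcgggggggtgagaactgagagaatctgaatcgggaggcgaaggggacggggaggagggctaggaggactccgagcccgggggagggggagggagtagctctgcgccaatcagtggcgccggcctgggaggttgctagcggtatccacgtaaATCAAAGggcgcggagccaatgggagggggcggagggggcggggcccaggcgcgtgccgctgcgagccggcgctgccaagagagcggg
POLR2L: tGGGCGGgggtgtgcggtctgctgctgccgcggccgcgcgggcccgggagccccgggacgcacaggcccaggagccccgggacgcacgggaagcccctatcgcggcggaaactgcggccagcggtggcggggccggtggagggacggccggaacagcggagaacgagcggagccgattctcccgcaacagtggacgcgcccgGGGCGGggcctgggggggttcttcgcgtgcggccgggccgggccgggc
They lie at chr9:95509267-95509516 (minus strand), chr14:105168825-105169026 (minus), chr20:325302-325551 (plus), chr6:98834324-98834573 (plus) and chr11:842530-842779 (minus). The PTCH1 window is inside the gene as GENCODE draws it, because longer transcripts start upstream. A promoter entry was found by symbol for 313 of the 451 genes (69.4%), which is too few, so the check of motifs and GC content in promoters between the set and other genes is void. The values of the set are not given, and those of other genes above serve only to show how common each motif is. AXIN2, GLI1, HEY1, NOG and TBX2 had no entry.

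Canonical Wnt signals act through the LRP5 co-receptor, and AXIN2 is both a target of the pathway and a brake on it. AXIN2 had 540 and 551 CPM in DMSO, 437 and 403 CPM with UCI-1001, and 275 and 301 CPM with UCI-1014. It carried the highest mean CPM of the set, and its groups did not overlap. LRP5 stood at the edge of the rule, with means of 106, 88.4 and 63.7 CPM in DMSO, UCI-1001 and UCI-1014. LRP4, AMER1, DACT3, the Wnt5a receptor ROR2 and the stem cell receptor LGR5 were the other members, with ratios of UCI-1014 to DMSO from 0.561 (LGR5) to 0.599 (LRP4). Of the 7 genes, 5 were lower with UCI-1001, AXIN2 by -0.36 ± 0.05 (adjusted p = 0.000114), while AMER1 (-0.25, adjusted p = 0.0562) and LGR5 (-0.29, adjusted p = 0.436) did not pass the test. In a list of 33 Wnt genes, 30 were tested, of which 12 were called lower and 9 higher under UCI-1014, and 5 lower and 1 higher under UCI-1001. LRP6, the other co-receptor, was not in the set, with 88.4 CPM in DMSO and 104 CPM with UCI-1014.

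Notch receptors are opened by ligands such as JAG2 on the next cell, and HEY1 is a direct target. NOTCH3 had 328 and 340 CPM in DMSO, 256 and 249 CPM with UCI-1001, and 175.1 and 178 CPM with UCI-1014. JAG2 had 128 and 121 CPM, 103 and 94.9 CPM, and 69.9 and 73.8 CPM in the same groups. HEY1 had 320 and 310 CPM in DMSO, 283 and 286 CPM with UCI-1001, and 188 and 187 CPM with UCI-1014, the smallest UCI-1001 change of the 3. The glycosyltransferase gene LFNG was the exception in order, with 2.66 CPM in DMSO, 1.33 CPM with UCI-1001 and 1.499 CPM with UCI-1014. Of 6 members with a Notch role, 5 were lower with UCI-1001, NOTCH3 by -0.38 ± 0.04 (adjusted p = 7.09e-06), and the coactivator MAML2 (-0.16, adjusted p = 0.0935) did not pass. NOTCH1 went the other way, from 82.2 CPM in DMSO to 110 CPM with UCI-1014. Of the 24 genes of the Notch list, 22 were tested, with 6 lower and 6 higher under UCI-1014 and 4 lower and 2 higher under UCI-1001.

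NOG encodes noggin, a secreted BMP antagonist. It had 71.0 and 66.4 CPM in DMSO, 65.8 and 58.6 CPM with UCI-1001, and 23.1 and 29.2 CPM with UCI-1014. The UCI-1001 libraries lay just below the DMSO libraries and far above those of UCI-1014, and the change from DMSO did not pass the test (-0.12 ± 0.08, adjusted p = 0.354). The inhibitory SMAD6 (43.5, 32.2 and 21.1 CPM in DMSO, UCI-1001 and UCI-1014) and the receptor-regulated SMAD3 (28.9, 20.3 and 15.3 CPM) were lower with UCI-1001 as well, SMAD3 by -0.49 ± 0.08 (adjusted p = 0.0011). In a list of 25 BMP and TGF-beta feedback genes, all tested, 7 were lower and 9 higher with UCI-1014, and 3 were lower and 3 higher with UCI-1001.

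**Figure D1:**
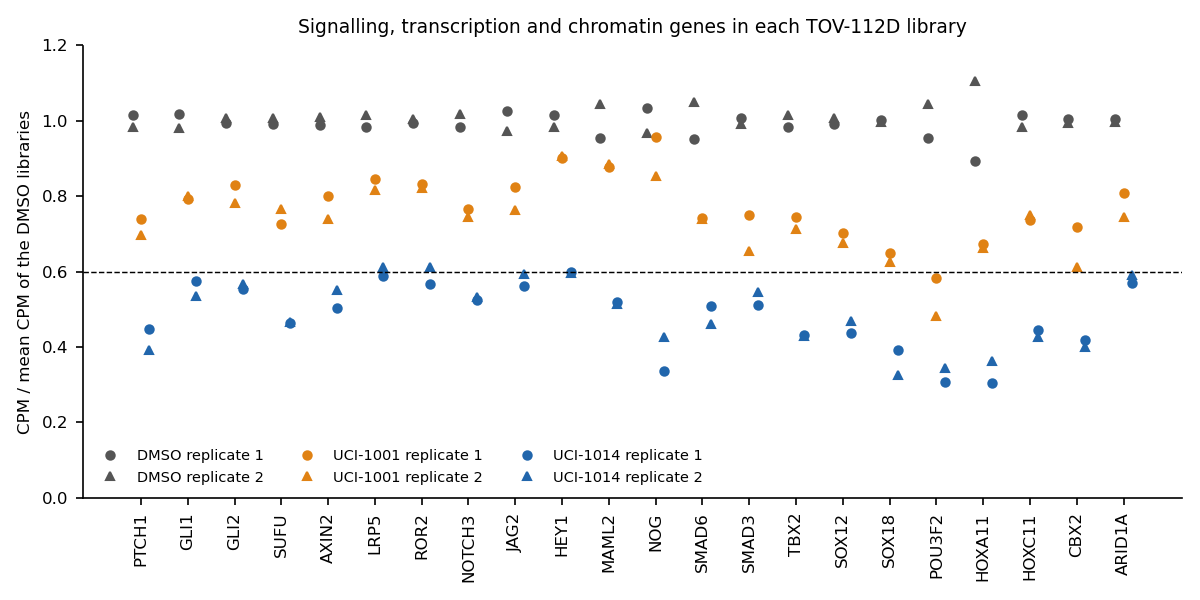
CPM of 22 genes of the set in each TOV-112D library, divided by the mean of the DMSO libraries, with circles for replicate 1 and triangles for replicate 2. The dashed line is the 0.6 threshold of the rule. The UCI-1001 libraries lie between DMSO and UCI-1014, near DMSO for NOG and below 0.6 for POU3F2.

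Homeobox genes made up 22 members of the set, grouped by role after the members were known. POU3F2, a neural factor of 1 exon on chromosome 6, had 13.8 and 15.1 CPM in DMSO, 8.40 and 6.96 CPM with UCI-1001, and 4.41 and 4.94 CPM with UCI-1014. HOXC11 had 63.3 and 61.4 CPM, 46.0 and 46.7 CPM, and 27.8 and 26.5 CPM in the same order, and HOXA11 had 8.12 and 10.1 CPM, 6.11 and 6.03 CPM, and 2.77 and 3.30 CPM. In all 3 genes the groups did not overlap. DLX5 and DLX6, neighbours on chromosome 7, had ratios of UCI-1014 to DMSO of 0.508 and 0.470, and IRX3 and IRX5 on chromosome 16 had 0.593 and 0.590. The group further held EN1 at 0.361, TLX1 at 0.4005, MEOX2 at 0.473 and the HOX cofactor MEIS1 at 0.534. With UCI-1001, 14 of the 22 were lower and none was higher. POU3F2 changed most (-0.89 ± 0.13, adjusted p = 0.000268), and HOXB13 (-0.08, adjusted p = 0.691) and MEOX2 (-0.10, adjusted p = 0.55) did not pass. Over a list of homeobox genes taken by symbol, 87 were tested, of which 39 were lower and 14 higher with UCI-1014, and 25 lower and 2 higher with UCI-1001. Over all genes tested, 23.4% were lower and 23.7% higher with UCI-1014, and 6.36% and 9.39% with UCI-1001. Of 72 genes of that list with at least 2 CPM in DMSO, 17 were in the set (23.6%), against 3.79% of all such genes.

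The 29 HOX genes of at least 2 CPM in DMSO did not move as a block. The lowest UCI-1014 to DMSO ratio was 0.334 (HOXA11) and the median 0.647, and 26 were below 1. The set took 3 of 11 in the A cluster, 4 of 9 in the B cluster and 3 of 9 in the C cluster. That is 10 of 29 (34.5%), against 3.79% of all genes of at least 2 CPM, a share looked at after the members were known. HOXA5, inside the same cluster as HOXA3 and HOXA9, had 10.3 CPM in DMSO and 14.7 CPM with UCI-1014, and HOXB9 had 49.9 and 58.6 CPM. HOXA3, HOXA9, HOXB3, HOXB4, HOXB8 and HOXC9 overlap a neighbouring HOX gene on the same strand, where reads can be shared between them.

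**Figure D2:**
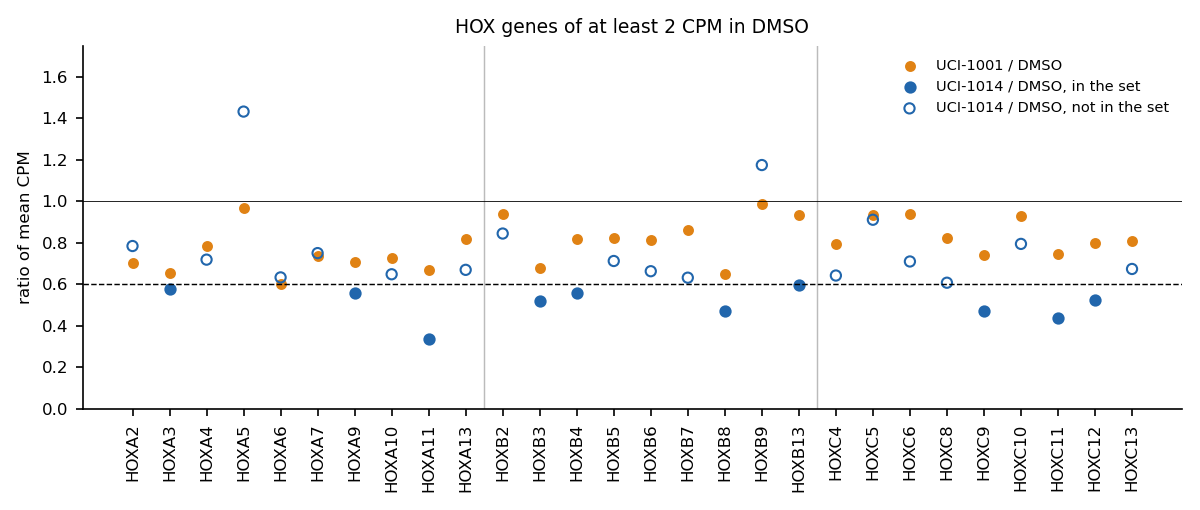
Ratio of mean CPM to the DMSO mean for HOX genes of at least 2 CPM in DMSO, with 1 gene left out, ordered by cluster (A, B, C, divided by grey lines) and number; each point is a mean of 2 libraries. Filled blue points are UCI-1014 ratios of genes in the set, open blue points those of other genes, and orange points UCI-1001 ratios. HOXA5 and HOXB9 lie above 1 with UCI-1014.

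Among other transcription factors, TBX2, a T-box repressor linked to senescence bypass, had 252 and 260 CPM in DMSO, 191 and 182 CPM with UCI-1001, and 110.5 and 109.6 CPM with UCI-1014. SOX12, encoded by 1 exon, had 140 and 142 CPM, 99.2 and 95.5 CPM, and 61.6 and 66.2 CPM. SOX18, a factor of vessel development, had 31.0 and 30.8 CPM, 20.01 and 19.3 CPM, and 12.1 and 10.1 CPM. In each of these genes the libraries of the 3 groups were apart from each other. GLIS2, a GLI-related zinc finger gene that stands for 2 identifiers in the table, had 80.6, 46.8 and 34.3 CPM in DMSO, UCI-1001 and UCI-1014. RUNX2, ZIC1, ZIC4, SALL2, BCL11B and the p53 relative TP73 were members too. Of the 26 genes in the group, 16 were lower with UCI-1001 and none was higher, GLIS2 by -0.76 ± 0.06 (adjusted p = 3.64e-07), SOX18 by -0.63 ± 0.08 (adjusted p = 0.000146) and TBX2 by -0.44 ± 0.04 (adjusted p = 3.46e-06). ZIC4 (10.8 CPM in DMSO and 11.8 CPM with UCI-1001) and the heat shock factor HSF2 (34.0 and 32.7 CPM) did not pass the test. Families differed. Of genes of at least 2 CPM, the set took 2 of 7 SOX, 0 of 20 forkhead and 1 of 11 T-box and GATA genes. It took 1 of 35 basic helix-loop-helix genes and 1 of 28 nuclear receptors, where the share over all genes was 3.79%. With UCI-1014, 13 of 25 forkhead genes tested were higher and 5 lower. Of 12 T-box and GATA genes tested, 7 were higher and 2 lower.

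Chromatin regulators included the Polycomb readers CBX2 and CBX8, which lie next to each other on chromosome 17, the SWI/SNF subunits ARID1A and SMARCA4, and the H3K4 methyltransferases KMT2B and SETD1B. CBX2 had 113 and 112 CPM in DMSO, 80.6 and 68.6 CPM with UCI-1001, and 46.9 and 44.9 CPM with UCI-1014. ARID1A had 382 and 379 CPM, 308 and 283 CPM, and 217 and 225 CPM. Neither gene had overlapping groups. With UCI-1001, 13 of the 15 members were lower, SETD1B by -0.69 ± 0.06 and CBX2 by -0.57 ± 0.06 (adjusted p = 2.61e-05), and the demethylase KDM4D (0.15, adjusted p = 0.646) and DIDO1 (-0.01, adjusted p = 0.894) did not pass. Over a list of 82 chromatin regulators, 27 were lower and 28 higher with UCI-1014, and 25 lower and 10 higher with UCI-1001, and 7 were in the set.

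A further group encodes small subunits and assembly factors of the respiratory chain: NDUFA2, NDUFB3 and NDUFB4 of complex I, COX6B1 and COX7B of cytochrome oxidase with COX14, COX16, COA3, PET100 and SCO2 for its assembly, NDUFAF8 and SDHAF1 for the assembly of complexes I and II, and ATP5MC1 and ATP5ME of ATP synthase. Their ratios of UCI-1014 to DMSO ran from 0.454 (NDUFA2) to 0.599 (COX6B1). NDUFA2 had mean levels of 27.7, 20.4 and 12.6 CPM in DMSO, UCI-1001 and UCI-1014. With UCI-1001, 3 of the 14 were lower (NDUFA2, SCO2 and SDHAF1), and the median log2 fold change was -0.17. Of 94 genes with symbols of the NDUF, COX, ATP5 or SDH families and at least 2 CPM, 11 were in the set (11.7%), and of 79 MRPL or MRPS genes 4 were (5.06%). No RPL or RPS gene of 78 was in the set, and over all genes of at least 2 CPM the share was 3.79%. These families were looked at after the members were known.

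The other mitochondrial genes included the import subunit TOMM6, the mitochondrial methionyl-tRNA synthetase MARS2 and the aldehyde dehydrogenase ALDH1B1. TOMM6 had 132 and 124 CPM in DMSO, 105 and 101 CPM with UCI-1001, and 53.9 and 59.7 CPM with UCI-1014. It was lower with UCI-1001 by -0.29 ± 0.05 (adjusted p = 0.0015), as were 10 of the 12 in this group. In the RNA machinery, POLR2L, a small subunit shared by the RNA polymerases, had 73.1 and 67.3 CPM, 59.8 and 52.4 CPM, and 26.2 and 30.3 CPM in the same order. IMP3, a pre-rRNA processing factor encoded by 1 exon, had 53.4 and 50.4 CPM, 36.1 and 36.4 CPM, and 18.1 and 20.7 CPM. Both genes had groups that did not overlap, and 6 of 12 genes of the RNA machinery were lower with UCI-1001. POLR2L, TOMM6 and IMP3 overlap a gene on the other strand, and no source used here states whether the libraries keep the strand. Per length, CEP112 (904 TPM, a level scaled by transcript length), TOMM6 (507 TPM) and COX7B (493 TPM) had the highest levels of the set in DMSO.

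Cell cycle members were the G1 cyclins CCNE1 and CCNE2, the G2 cyclin CCNF, the mitotic motor KIF18B, the kinetochore subunit SPC24, the replicative polymerase subunit POLD3, the polymerase POLH, and the telomerase gene TERT. KIF18B had means of 128, 106 and 70.6 CPM in DMSO, UCI-1001 and UCI-1014, and CCNE2 had 17.4, 13.1 and 9.45 CPM. Of these 12, 7 were lower with UCI-1001, CCNE1 by -0.38 ± 0.08 (adjusted p = 0.00564), and SPC24 (-0.09, adjusted p = 0.534) did not pass. No gene of a list of 54 mitosis genes was in the set, and 2 of 40 replication genes were. Matrix and receptor genes included the laminin chain LAMA5, the proteoglycan HSPG2, the endocytic receptor LRP1, the ephrin receptor EPHB4 and all 3 LRFN genes of at least 2 CPM. LAMA5 had means of 144, 109 and 65.6 CPM, LRP1 had 313, 263 and 148 CPM, and 7 of the 12 were lower with UCI-1001.

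Outside these groups, the highest CPM in DMSO were those of PLEC, DIO2 and CEP112. PLEC, which encodes the cytoskeletal linker plectin, had 557 and 530 CPM in DMSO, 443 and 395 CPM with UCI-1001, and 299 and 298 CPM with UCI-1014. DIO2, the deiodinase that activates thyroid hormone, had 335 and 317 CPM, 257 and 269 CPM, and 158 and 154 CPM. CEP112, a centrosome gene next to AXIN2, had 284 and 296 CPM, 241 and 237 CPM, and 135 and 143 CPM. The groups did not overlap in any of them, and all 3 were lower with UCI-1001, PLEC by -0.36 ± 0.05 (adjusted p = 0.000124).

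Members of other lists are set beside the 3.79% of all genes of at least 2 CPM that the set holds. Of 194 ubiquitin ligase genes of at least 2 CPM, 9 were in the set (4.64%), namely TRIM27 (131 and 130 CPM in DMSO, 106 and 103 CPM with UCI-1001, 66.5 and 66.7 CPM with UCI-1014), ASB13, FBXO31, FBXL15, KLHL14, RNF207, TRIM45, TRIM46 and TRIM7. With UCI-1014, 67 genes of that list were higher and 53 lower, and with UCI-1001 29 were higher and 17 lower. Of 101 ZBTB, ZSCAN, PRDM and related zinc finger genes of that level, 10 (9.90%) were in the set, namely BCL11B, GLIS2, PRDM15, PRDM16, SALL2, ZBTB24, ZBTB42, ZBTB47, ZFP14 and ZFP64. Of 202 solute carriers, 5 were (2.48%), among them SLC25A28, SLC27A3, SLC46A1 and SLC6A16, and of 236 tested 51 were higher and 49 lower with UCI-1014. The GTPase regulators ARHGAP39 and PLEKHG3, the orphan nuclear receptor NR6A1, the polyadenylation factor PCF11, the corepressor BCORL1 and the noncoding genes LINC00672 and NCBP2-AS2 had ratios of UCI-1014 to DMSO from 0.488 (PLEKHG3) to 0.591 (BCORL1). On the immediate-early list, 22 of 23 genes were higher with UCI-1014, and a gene raised by UCI-1014 cannot be in the set, which held none of them. HSF2 was the sole member among heat shock genes, of which 24 of 27 were higher with UCI-1014 and 23 with UCI-1001. Over all genes tested, 23.7% were higher and 23.4% lower with UCI-1014, and 9.39% were higher and 6.36% lower with UCI-1001.

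The lowest ratios of all belonged mostly to low or ambiguous symbols. CXCR5 had 4.25 CPM in 1 DMSO library and 0 in every other library of the series, so its place rests on that library. TVP23C-CDRT4, a read-through symbol, had 3.01 and 2.98 CPM in DMSO, 2.49 and 2.94 CPM with UCI-1001, and 0.226 and 0 CPM with UCI-1014. BIVM-ERCC5, MINOS1-NBL1, the pseudogenes FABP5P7, TSSK5P and HSD17B1P1 and the near copy FOXD4L4 share sequence with other genes, so their values are uncertain. SMIM11A varied between libraries of 1 group, with 2.14 and 12.5 CPM with UCI-1001. Beyond these, AVPR2 at 0.242, RHBDL1 at 0.281, the potassium channel KCNC1 at 0.296, the adhesion gene ICAM3 at 0.303, the metallothionein MT1X at 0.309 and ZHX2 at 0.312 had the lowest ratios. MT1X had 8.12 and 8.26 CPM in DMSO, 6.42 and 5.41 CPM with UCI-1001, and 2.54 and 2.52 CPM with UCI-1014.

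Genes of the set had few exons and GC-rich transcripts. This was seen after the members were known and is a description over genes with a placed identifier. The canonical transcript had a median of 5 exons in the set and 9 in the other genes of at least 2 CPM, and 8.33% of the set had 1 exon against 2.07% of the others. Of genes with 1 or 2 exons, 13.7% and 13.8% were in the set, and of genes with 10 to 19 exons 2.16%. The transcript GC content had a median of 56.6% against 47.6%, and the share of genes in the set went from 0.999% below 40% GC to 9.24% at 65% GC or more. Among genes with 5 or more exons the share went from 0.628% below 45% GC to 6.85% at 65% GC or more. Among single-exon genes there was no steady rise, with 12.9% (9 of 70) below 45%, 8.42% (8 of 95) at 45 to 55%, 19.2% (15 of 78) at 55 to 65% and 18.5% (5 of 27) at 65% GC or more. The gene span had a median of 14532 bases in the set and 35509 bases in the others. Members were also lower in level, with a median of 21.1 CPM in DMSO against 38.1 CPM, and the part of level, GC content and exon number in membership was not tested apart. Of 444 placed genes, 115 lay within 100 kb of another member in 51 runs, among them HOXC12, HOXC11 and HOXC9, ZIC4 and ZIC1, AXIN2 and CEP112, and the metallothionein genes MT2A and MT1X. No matching count was made for other genes of that level, so nothing is read from it about clustering.

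**Figure D3:**
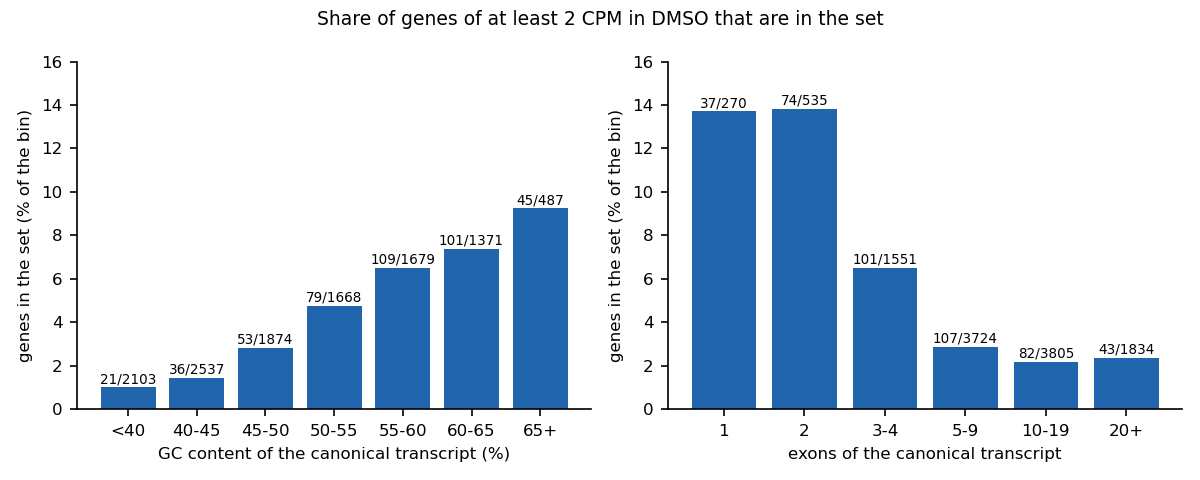
Share of the genes of at least 2 CPM in DMSO that are in the set, in bins of transcript GC content (left) and exon number (right), with the number in the set over the number of genes above each bar. The share rises with GC content and is highest for genes with 1 or 2 exons.

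The UCI-1001 mean lay between those of UCI-1014 and DMSO in 429 of the 451 genes, at or above DMSO in 17 and at or below UCI-1014 in 5. The median ratio to DMSO was 0.793 with UCI-1001 (quartiles 0.725 and 0.854). Of 450 genes tested, 228 were lower (50.7%) and 0 were higher with UCI-1001 at an adjusted p under 0.05 by edgeR, where 6.36% and 9.39% of all 14174 genes tested were lower and higher. At an unadjusted p under 0.05, 311 were lower and 0 higher, and DESeq2 called 135 lower and 0 higher. Both UCI-1001 libraries lay below both DMSO libraries in 383 genes of the set, and 35.5% of all genes of at least 2 CPM did so. Both lay above both UCI-1014 libraries in 419, and 55.4% of all genes did so. The genes were chosen for low UCI-1014 levels against the same DMSO libraries. The order of the compounds, the UCI-1001 counts and the UCI-1001 p-values of single members depend on that choice, and nothing is read from them about the compounds. The median log2 fold change with UCI-1001 was -0.31 in the set and 0.00 over all genes tested, and with UCI-1014 it was -0.76 and -0.02. The count of lower genes was 124 without DMSO replicate 1, 130 without DMSO replicate 2 and 136 without UCI-1001 replicate 2, and 36 when all 12 libraries shared one fit.

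The largest decreases with UCI-1001 that passed the test were in low genes. BIVM-ERCC5 had 5.11 CPM in 1 DMSO library and 0 in the other, and 0 in both UCI-1001 libraries, so its fitted value is not given. RHBDL1, a rhomboid protease gene, had 2.74 and 3.99 CPM in DMSO and 1.37 and 1.60 CPM with UCI-1001 (-1.15 ± 0.31, adjusted p = 0.0228). The sarcomere gene TCAP (-1.14 ± 0.30), the vasopressin receptor gene AVPR2 (-1.08 ± 0.27) and the CDC42 effector gene CDC42EP2 (-1.04 ± 0.30) followed. Among genes of higher level, MAT2A, which makes the methyl donor S-adenosylmethionine, had 219 and 225 CPM in DMSO, 129 and 127 CPM with UCI-1001, and 115 and 116 CPM with UCI-1014 (-0.78 ± 0.04 with UCI-1001, adjusted p = 8.86e-09). The ubiquitin ligase gene RNF207 had 10.6 and 10.2 CPM, 5.35 and 6.18 CPM, and 5.26 and 5.33 CPM. In both genes the UCI-1001 libraries lay close to those of UCI-1014. At the other end were ZBED8, with 5.75 and 6.01 CPM in DMSO, 5.35 and 6.55 CPM with UCI-1001, and 2.54 and 3.05 CPM with UCI-1014, and the elongation factor gene ELL3, with 3.66 and 4.05 CPM, 3.72 and 4.28 CPM, and 1.64 and 2.13 CPM. Their UCI-1001 libraries overlapped those of DMSO. These 4 genes were picked after their values were seen.

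The p53-WT comparison in Saos-2 cells used none of the libraries of the rule. It gave a split: of 406 genes of the set tested, 153 were higher (37.7%) and 138 lower (34.0%) with p53-WT, where 33.5% and 33.0% of all 14272 genes tested were higher and lower. These shares are near the background, and the median log2 fold change was 0.03 in the set and -0.01 over all genes. The other 45 genes were too low in Saos-2 to be tested. The set differed in level between the lines, as 89 of the 451 genes (19.7%) were over 10 times higher in DMSO-treated TOV-112D than in p53-null Saos-2 cells, as were 7.48% of all genes of at least 2 CPM in DMSO. In the set, 50 genes were below 1 CPM in all Saos-2 libraries. No matching count was made for other genes, so nothing is read from these 50.

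Among the genes higher with p53-WT were both a Notch receptor and its ligand. NOTCH3 had 5.54, 6.30 and 6.44 CPM in p53-null and 370, 358 and 415 CPM in p53-WT cells (6.12 ± 0.13, adjusted p = 3.13e-10). JAG2 had 7.43, 8.76 and 9.52 CPM in p53-null and 519, 490 and 547 CPM in p53-WT cells (6.07 ± 0.14). The groups were far apart in both, and LFNG also rose (3.98 ± 0.19, adjusted p = 1.49e-08), whereas HEY1 fell (-1.58 ± 0.21, adjusted p = 4.78e-05). The potassium channel KCNJ12 rose most in the set (6.80 ± 0.19), and its reads can be shared with near-identical copies. It was followed after NOTCH3 by FAM43B and JAG2, then by the retinal reductase DHRS3 (5.62), the nociceptin receptor OPRL1 (4.83), PANK1 and INKA2 (4.26). EPHB4 had 46.3, 56.8 and 58.8 CPM in p53-null and 672, 625 and 695 CPM in p53-WT cells (3.78 ± 0.13, adjusted p = 1.71e-09). EPHB4 overlaps SLC12A9, POLH overlaps GTPBP2, and CCNE2 overlaps INTS8 and NDUFAF6 on the other strand.

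The members on a list of 50 p53 targets were PANK1, a pantothenate kinase, POLH, a translesion polymerase, and TRIAP1, an inhibitor of apoptosis. PANK1 had 5.20, 6.56 and 5.88 CPM in p53-null and 87.7, 115 and 113 CPM in p53-WT cells (4.31 ± 0.14, adjusted p = 1.57e-09). POLH had 26.1, 31.3 and 29.0 CPM in p53-null and 177, 178 and 174 CPM in p53-WT cells (2.77 ± 0.11). In TOV-112D, the rule chose these genes for being lower with UCI-1014, so nothing is read from that direction. PANK1 had 15.3 and 14.8 CPM in DMSO and 7.58 and 6.06 CPM with UCI-1014. POLH had 29.3 and 28.9 CPM in DMSO and 14.9 and 15.8 CPM with UCI-1014. TRIAP1 had 36.3 and 34.2 CPM in DMSO, 27.6 and 29.9 CPM with UCI-1001 and 21.4 and 19.4 CPM with UCI-1014. Of the 50 genes on that list, 46 were tested in Saos-2 and all 46 were higher with p53-WT, as were 33.5% of all genes. In TOV-112D, 19 of 43 were higher and 9 lower with UCI-1014, and 10 higher and 3 lower with UCI-1001. Over all genes tested there, 23.7% were higher and 23.4% lower with UCI-1014, and 9.39% and 6.36% with UCI-1001. Of 41 genes of the list with at least 2 CPM in DMSO, 3 were in the set (7.32%), against 3.79% of all such genes.

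The cell cycle group fell with p53-WT in 11 of its 12 genes, all but POLH. CCNE2 had 39.1, 30.3 and 31.5 CPM in p53-null and 0.816, 1.55 and 1.65 CPM in p53-WT cells (-4.51 ± 0.22, adjusted p = 1.69e-08). KIF18B (-3.85), the orphan receptor GPR19 (-3.62), SPC24 (-3.30), TERT (-3.13), the ATPase gene FIGNL1 (-2.91) and RIPPLY2 (-2.48) were next among the decreases, with MSH5-SAPCD1, a read-through symbol of 6 identifiers, beside them. Replication and mitosis genes outside the set also fell, 35 of 40 and 50 of 54 in the lists. The other groups were divided. Of the Hedgehog genes, PTCH1 (-1.77 ± 0.20, adjusted p = 1.55e-05) and GLI1 (-1.25 ± 0.29) fell and SUFU rose (0.33 ± 0.12, adjusted p = 0.0364), and of the Wnt genes, LRP5, LRP4, AMER1 and DACT3 rose and AXIN2 and ROR2 fell. CBX2 (-2.37 ± 0.21) and SETD1B (-1.16) fell while KMT2B rose (0.54). None of the 14 respiratory chain genes fell, and 5 rose (NDUFAF8, COX6B1, COX14, SCO2 and SDHAF1). Over all genes tested, 33.5% were higher and 33.0% lower with p53-WT, and the groups were formed after the members were known. In the matrix and receptor group 8 rose, among them HSPG2 (1.91) and the integrin ITGA3 (1.34), and LRFN1 fell (-0.95).

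**Figure D4:**
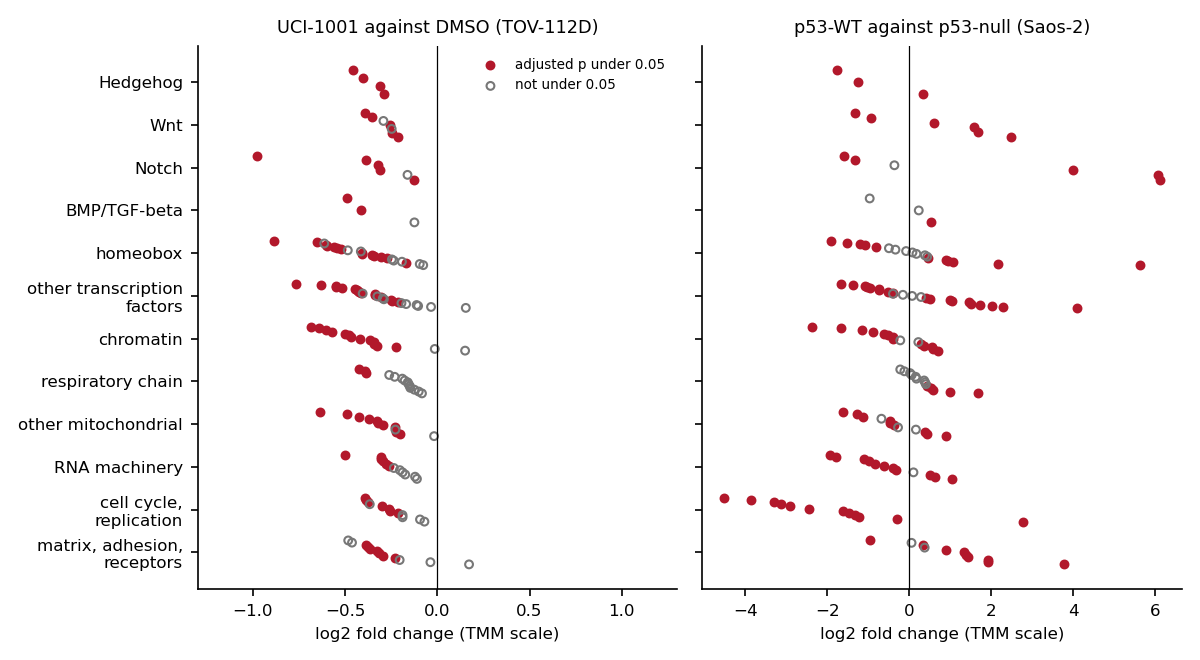
Log2 fold change of the grouped genes with UCI-1001 against DMSO in TOV-112D cells (left) and with p53-WT against p53-null in Saos-2 cells (right), 1 point per tested gene and groups in rows; red points have an adjusted p under 0.05 by edgeR. With UCI-1001 the red points are all below 0, and with p53-WT they lie on both sides of 0 in most rows, all above it for the respiratory chain and all but POLH below it for the cell cycle.

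**Figure D5:**
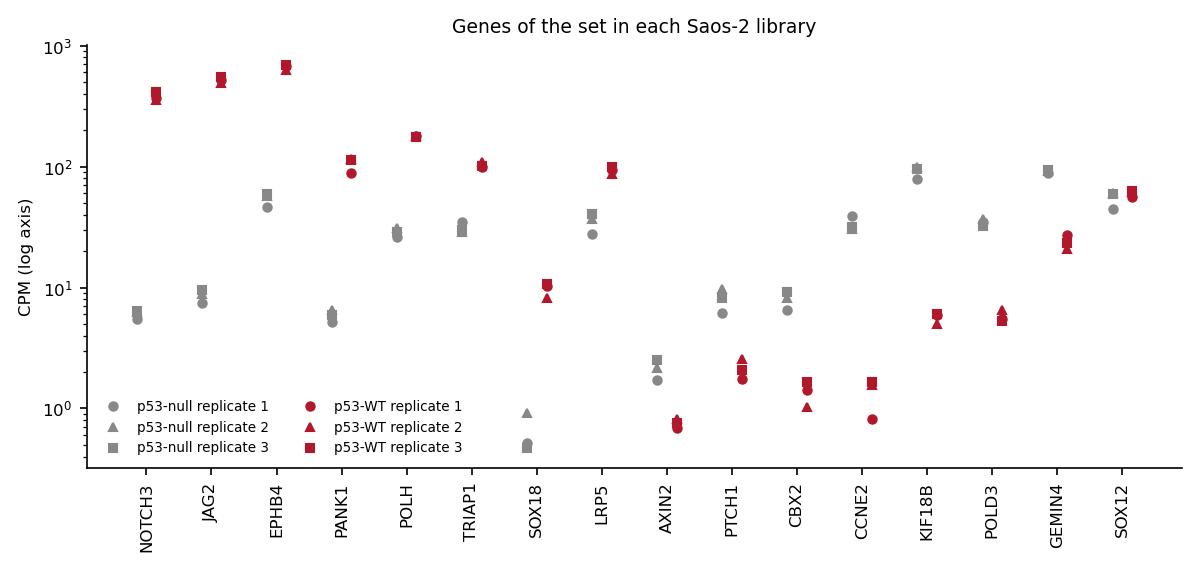
CPM on a log axis of 16 genes of the set in the 3 p53-null (grey) and 3 p53-WT (red) Saos-2 libraries, with a marker shape for each replicate. NOTCH3, JAG2, EPHB4, PANK1 and POLH are higher and CCNE2, KIF18B, POLD3 and GEMIN4 lower with p53-WT, and SOX12 overlaps.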

How the data were processed

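RNA was extracted from TOV-112D and Saos-2 cells and sequenced, and the authors ran kallisto (version 0.48.0, build GRCh38) on the reads and DESeq2 (version 1.38.3) on the genes. The deposited gene table holds whole-number counts, not normalized, made by the authors by adding estimated counts of the transcripts of 1 Ensembl gene. The authors also deposited TPM per transcript, used here only for levels per length. Of 40295 identifiers, 8043 had no symbol and held 0.425% of counts. These were left out of the CPM totals and the rule. They entered the fits under their identifiers, and those that passed the count filter are among the genes tested. The members and gene lists were chosen with earlier results of these data known.

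Counts were summed by symbol and divided by the library total (CPM). Counts were tested with edgeR 4.0.16 in R 4.3.3 (filterByExpr, TMM, glmQLFit, glmQLFTest, Benjamini-Hochberg), with one fit for the 6 TOV-112D and one for the 6 Saos-2 libraries, checked on simulated data. The fits covered 14174 and 14272 genes, with biological coefficients of variation of 3.59% and 12.3%. DESeq2 1.42.0 was an alternative. SE is the log2 fold change divided by the root of F. Coordinates, exons and GC content were taken from GENCODE 44. Genes named are the 15 with the lowest ratio, the 8 with the highest DMSO mean, the 3 on each side of the threshold, up to 5 with the largest changes each way with UCI-1001 and 8 with p53-WT (at least 1 CPM, groups apart), and members of the lists. Further members are named by role and were chosen after their values were seen. Symbols that read as dates are not named. Some genes are not reported here.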

Additional observations from a re-analysis of the deposited data

How the results depend on the processing

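The number of members of the set stayed within 1.5 times 451 with a total over all rows, a DMSO minimum of 5 CPM, single identifiers, and without each DMSO or UCI-1014 library (457 to 563), but was 141 at a ratio of 0.5 and 247 with TMM-scaled libraries. The 228 members lower with UCI-1001 became 135 with DESeq2 and 36 in one fit of all 12 libraries, and ran from 124 to 255 without single TOV-112D libraries. The cause was not tested. None was higher with UCI-1001 in any of these fits. The p53-WT counts (153 higher, 138 lower) stayed within 1.5 times under every alternative, from 137 to 147 higher and 120 to 142 lower without single Saos-2 libraries, and were 162 and 154 without replicate 1 of both Saos-2 groups, chosen after seeing the data. The listed genes with UCI-1014, counted where called, numbered 825 and were 497 in one fit of all 12 libraries, against 670 to 819 without single libraries. With the replicate number as a block, 193 genes of the set were lower with UCI-1001, and 157 were higher and 142 lower with p53-WT. Same-numbered libraries correlated weakly in their deviations (0.063 for DMSO and UCI-1001, -0.16 for UCI-1001 and UCI-1014, and 0.076 to 0.14 in Saos-2), so the numbers were not taken as pairs, and not every Saos-2 library correlated best with its own number. With the UCI-1014 numbers crossed, also chosen after seeing the data, the block gave 252 lower. Genes with few counts, 85 of the set under 5 CPM in DMSO, are the least certain.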
